A study of Homo sapiens with 22 samples.

Results

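The OCT2 line was WT RPTEC, hTERT-immortalized human renal proximal tubule epithelial cells with intact SETD2, carrying a lentiviral OCT2 construct. It was sequenced as 2 of the 22 libraries and was compared with the 6 libraries of the other transduced WT lines, which carried eGFP as control vector, PRRX1 or SOX2 (2 libraries each). Membership followed from the labels alone, and no measured value was used to choose it. All 8 libraries came from cells in regular medium with 10% serum and without TGF-β. The other 14 libraries entered the fit to estimate spread, apart from the KO values given at the end. They also counted in the level filters that chose the genes tested. These libraries carried none of the 4 constructs. In 2% serum these were WT, WT exposed for 72 h to TGF-β at 10 ng/ml, KO1 and KO2, which are single CRISPR clones without SETD2, and KO2_Rescue. Rescue1 and Rescue2, single clones in which SETD2 was put back, were in 10% serum. Per the study's methods each transduced line was selected with puromycin and kept as bulk cells, so a line is 1 transduction and its duplicate libraries are not separate transductions. P-values therefore measure the spread between libraries, and a difference between lines that arose in selection or passage cannot be told apart from an effect of the transduced factor.

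OCT2 is the transcription factor encoded by POU2F2. It binds the octamer motif ATGCAAAT through its POU domain, acts with the coactivator OCA-B (POU2AF1), and is best known in B cells. The name OCT2 is also used for SLC22A2, the organic cation transporter of the basolateral membrane of the proximal tubule, which is a different gene. In the study the line was made to ask whether OCT2, which is high in cells without SETD2, brings WT cells toward the epithelial-to-mesenchymal transition (EMT) of the KO clones. The study showed the ectopic protein by western blot. It reported more migration, invasion and spheroid formation with OCT2 than with eGFP. RNA levels alone are described here.

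Values are given as normalized counts, obtained by inverting the variance-stabilized log2 values that the authors deposited. Both OCT2 libraries held 12180 and 12186 genes with at least 10 normalized counts, against 11988 to 12180 in the 6 others, and their normalized totals of 12440397 and 12450863 lay below the 12690218 to 13042039 of the others. Summed epithelial and proximal tubule markers were like those of the other lines. The 8 broad epithelial markers summed to 22862 to 23033 in the OCT2 line and to 20565 to 24947 in the others, and the 14 proximal tubule markers summed to 7996 to 8063 against 7136 to 8302. KRT8 and KRT19 made the larger part of the epithelial sum. PAX8, at 6092 and 6088, made the larger part of the sum over the 14, so the sums say little on the other markers. Of those 14, 8 reached 10 counts in both OCT2 libraries, while LRP2, SLC22A6 and HNF4A, defining markers of the segment in tissue, were at 0. Of 11 immune markers in the file, CD3E, CD8A and MS4A1 were among those at 0, and the immune sum was 143 to 175 against 109 to 185. The 9 fibroblast markers summed to 3716 to 3859 in the OCT2 line against 1961 to 2533, of which DCN made the larger part, while FAP was at 0 and PDGFRA, COL1A2 and TWIST2 were at or under 3 counts.

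The transduced gene itself was clearly higher in the OCT2 line. POU2F2 (ENSG00000028277, GRCh38 chr19:42086110-42196585, minus strand) measured 1251 and 1121 in the OCT2 libraries, 279 and 357 in eGFP, 175 and 230 in PRRX1, and 232 and 395 in SOX2. The groups did not overlap, and the OCT2 mean of 1186 ± 92.1 (SD, n = 2) was 4.27-fold the mean of the 6 other libraries, 278 ± 83.8 (SD, n = 6). The lines without the construct were thus not at 0. On the log2 scale the difference was 2.14 (SE 0.43), with an adjusted p of 0.252 from limma's moderated test over all 22 libraries and 14585 genes. An exact two-sided permutation test over the 8 libraries gave p = 0.0714. With 28 ways to choose 2 of 8 libraries, this is the lowest p that this test can give. Any gene with both OCT2 libraries above the 6 others would get it. The test also takes duplicates of a line as separate units, so no conclusion is drawn from it.

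That adjusted p depended on which libraries and which scale entered the fit. With the 8 transduced libraries alone it was 0.136, and 0.0573 when genes with a mean under 50 counts were also left out. The untreated WT duplicates differed from each other more than those of any other group, with 54 of 2269 abundant genes over 2-fold apart against 4 to 32 in the other 10 groups, and POU2F2 was 39.3 in 1 of them and 237 in the other. Without these WT libraries, an alternative chosen after the data were seen, the SE of POU2F2 was 0.19 and its adjusted p 0.000283. Leaving out any of the other 6 groups without these constructs left the adjusted p between 0.279 and 0.401. On the deposited log2 scale, where all 22 libraries were kept and low counts are compressed, the adjusted p was 0.00357.

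**Figure D1:**
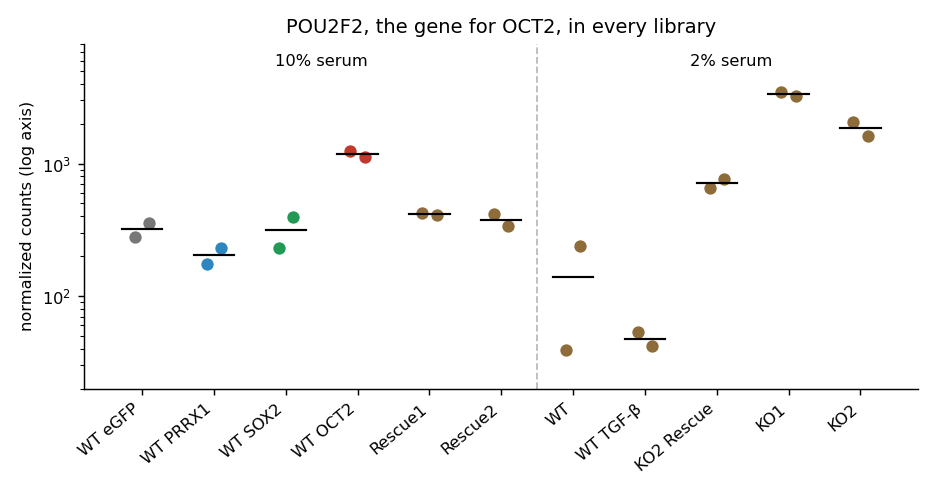
Normalized counts of POU2F2 (vertical axis, log scale) in each of the 22 libraries, by group, with points for libraries and bars for group means. The OCT2 libraries at 1251 and 1121 lie above the 6 other transduced libraries (175 to 395) and below the KO1 and KO2 means of 3349 and 1841.

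The level in the OCT2 line lay between those of WT and KO cells. POU2F2 averaged 3349 ± 131 in KO1 and 1841 ± 317 in KO2 (SD, n = 2 each), 710 ± 76.9 in the KO2 rescue, 415 ± 8.91 in Rescue1 and 377 ± 56.9 in Rescue2. The OCT2 line was therefore below both KO clones in every library and above every rescue library. Reads from the construct and from the endogenous gene are counted together in this file and cannot be told apart.

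Of the 8 POU factors and coactivators tested, POU2F2 and POU2F3 were above all other libraries, and none was called by limma over 22 libraries (1 at an unadjusted p under 0.05). POU2F3, of tuft cells, was low, at 11.3 and 9.68 against 4.8 to 9.19 (log2 0.43, SE 0.72, adjusted p = 1). POU3F3, the most abundant, measured 1339 and 1310 in the OCT2 line and 1199 to 1539 in the others. POU5F1, which encodes OCT4, was 138 and 118 against 77.3 to 132, and POU6F1 was 155 and 164 against 86.1 to 194. POU2F1, which encodes the ubiquitous relative OCT1, was 97.2 in 1 OCT2 library and 464 in the other, so its level could not be compared. The coactivator gene POU2AF1 was at 0 in both OCT2 libraries. SLC22A2, the transporter that shares the name, did not exceed 3.2 in any of the 8 libraries. PRRX1 measured 395 and 404 in its own line and 3.2 and 0 in the OCT2 line.

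Over the whole transcriptome the OCT2 line stayed close to the other lines. Between an OCT2 library and a library of another line, the median absolute log2 difference over 2269 abundant genes was 0.0841 to 0.1547, against 0.0632 to 0.1136 between duplicates of a line and 0.0795 to 0.1533 between the other lines. By line, the SOX2 libraries were nearest to OCT2 (median 0.0919), followed by PRRX1 (0.119) and eGFP (0.1229), with ranges that overlapped. These are descriptions of library pairs that share libraries, with no test.

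Few genes passed the test. Calling a gene took a change over 2-fold and an adjusted p under 0.05. In the fit over all 22 libraries, 1 gene was called higher in the OCT2 line than in the 3 other lines (0.00686% of 14585), which was RUNX1T1, and 0 lower (0%), with 741 genes (5.08%) at an unadjusted p under 0.05. Without the WT libraries 6 genes were called higher (0.0411%) and 1 lower (0.00686%). The higher genes were POU2F2, LRRC15, RUNX1T1, CCDC102A, SPSB1 and ENSG00000273397, which has no symbol in the annotation used, and the lower gene was KIF18A. DCN, SMOC1 and SLC7A2 passed the adjusted p there with changes below 2-fold. Without KO1 2 genes were called, and without each of the other 5 groups that lacked these constructs 0.

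On the deposited log2 scale, with the adjusted p alone because folds are compressed there, 6 genes were higher (0.0411%) and 3 lower (0.0206%). The higher genes were POU2F2, LRRC15, DCN, SLC7A2, SMOC1 and RELN, and the lower genes were CXCL8, SERPINA1 and PRRX1. PRRX1 is a property of the PRRX1 line, whose construct it is. With the 8 transduced libraries alone, RUNX1T1 and CCDC102A (adjusted p = 0.00531 each) and SLC7A2 (0.0245) passed, while RELN, SMOC1 and LRRC15 (0.0558 each), POU2F2 (0.136) and DCN (0.39) did not. With these libraries and a mean of at least 50 counts, a combination chosen after the data were seen, 4 of 9819 genes (0.0407%) had an adjusted p under 0.05, and these were ENSG00000278501, SLC7A2, RELN and SMOC1. ENSG00000278501 also has no symbol in the annotation used. It measured 425 and 436 in the OCT2 line and 0 in the 6 others, but 306 and 613 in untransduced WT cells. CCDC102A was likewise detected in 1 untreated WT library at 39.6 and at 0 in the other, so its presence was not particular to the OCT2 line.

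**Figure D2:**
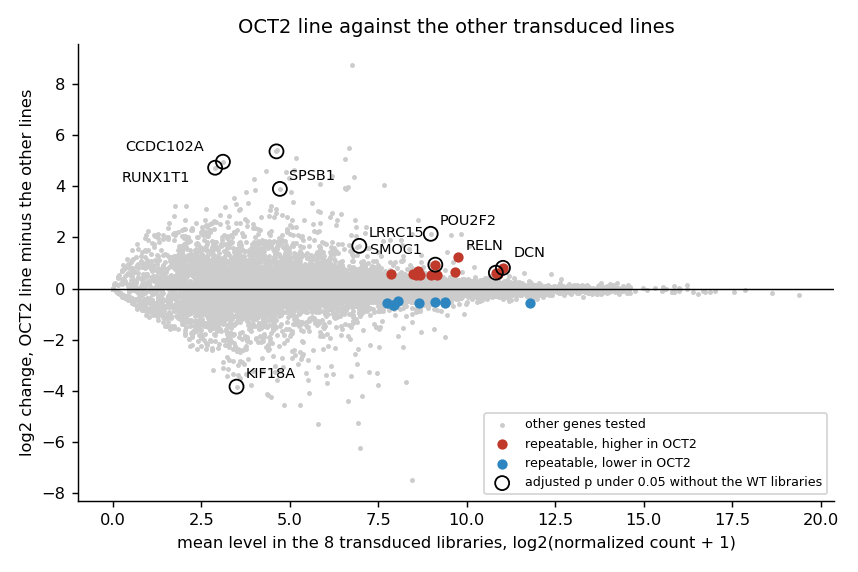
Each point is 1 of 14585 genes, with its mean level in the 8 transduced libraries (horizontal, log2 of normalized count + 1) and its log2 change in the OCT2 line against the other lines (vertical). Circles mark the 10 genes with an adjusted p under 0.05 without the WT libraries, and red and blue mark the 13 and 9 abundant genes with repeatable differences over 0.5. The scatter narrows at high levels.

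Among the genes that passed in at least 1 of these fits were LRRC15, RELN, SMOC1, DCN and SLC7A2, whose duplicates were close in the OCT2 line. LRRC15, a leucine-rich repeat membrane protein of mesenchymal cells (chr3:194355249-194369743, minus strand), measured 252 and 259 in the OCT2 line, 80.8 and 68.5 in eGFP, 71.3 and 69.9 in PRRX1, and 96.6 and 94.6 in SOX2. Both OCT2 libraries were above all others, by 3.18-fold on the means. Its log2 change was 1.67 (SE 0.48, adjusted p = 0.61 by limma over 22 libraries, 0.00217 without the WT libraries). RELN, which encodes the secreted matrix glycoprotein reelin (chr7:103471381-103989658, minus strand), measured 1450 and 1560 against 571 and 737, 559 and 573, and 752 and 692 in the same order of lines. The fold was 2.33, or 1.23 on the log2 scale with an SE of 0.62. The adjusted p was 0.991, and 0.365 without the WT libraries. RELN was 73.5 and 5.41 in the WT duplicates, and its adjusted p was 0.0238 on the deposited scale.

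SMOC1, a secreted calcium-binding matricellular protein that antagonizes BMP signalling (chr14:69854131-70032366, plus strand), measured 823 and 886 in the OCT2 line. It was 417 and 469 in eGFP, 382 and 353 in PRRX1, and 561 and 532 in SOX2, so that the OCT2 mean was 1.89-fold that of the others and the groups were apart. The log2 change was 0.94 (SE 0.21, adjusted p = 0.321, and 0.00217 without the WT libraries). DCN, which encodes the collagen-binding proteoglycan decorin (chr12:91140484-91183217, minus strand), measured 3121 and 3004 against 1485 and 1866, 1563 and 1975, and 1689 and 1943. The lines other than OCT2 could not be told apart by their duplicates, and OCT2 was 1.75-fold higher. The log2 change was 0.81 (SE 0.14, adjusted p = 0.159, and 0.00217 without the WT libraries). SLC7A2, a cationic amino acid transporter, measured 2389 and 2509 against 1815 and 1799, 1370 and 1357, and 1672 and 1588. Here the other lines also differed from each other, with eGFP above SOX2 and SOX2 above PRRX1 in every library, and OCT2 was 1.53-fold the mean of the others (log2 0.62, SE 0.14, adjusted p = 0.336, and 0.000283 without the WT libraries).

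**Figure D3:**
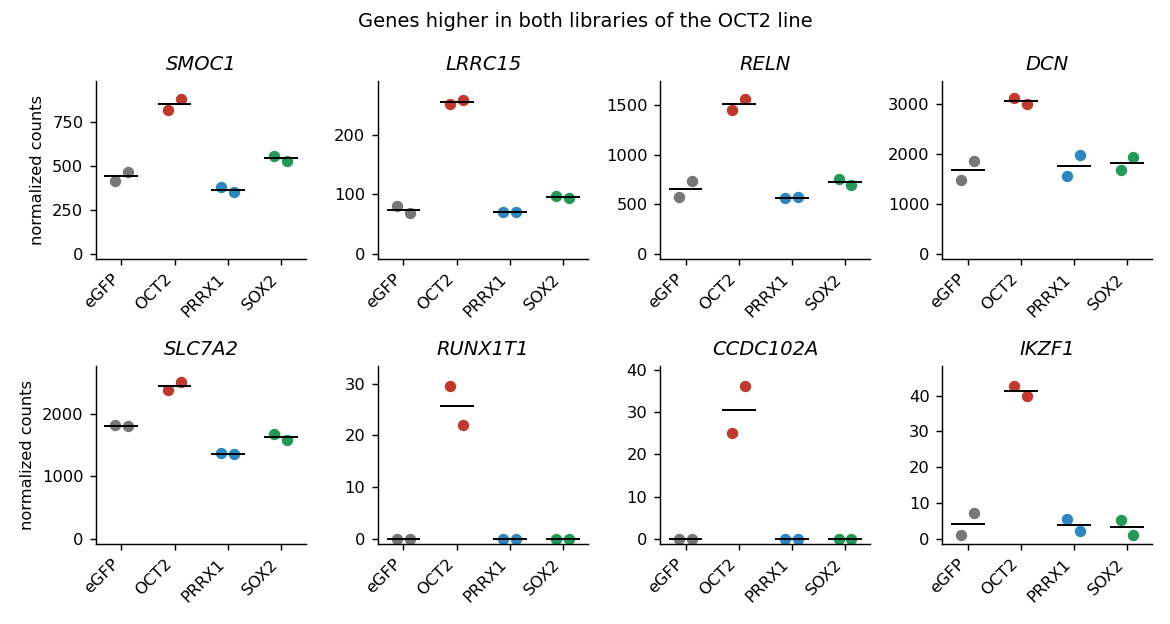
Normalized counts (vertical, from 0) of 8 genes in the 4 transduced lines, with a point for each library and a bar for the mean of 2. In each panel both OCT2 points lie above the 6 others, and RUNX1T1 and CCDC102A are at 0 outside the OCT2 line.

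RUNX1T1, a transcriptional corepressor, was at 0 in all 6 other transduced libraries and at 29.5 and 21.9 in the OCT2 line. Against a floor of 3 counts per library the OCT2 mean was at least 8.58-fold higher, and the adjusted p was 0.0405 over 22 libraries and 0.0124 without the WT libraries. This call was fragile. It was lost with a pseudocount of 5 (adjusted p = 0.0987), with quantile normalization (0.0547), on the deposited scale (0.111), and when either OCT2 library, either eGFP library or PRRX1 library 1 was left out (0.0526 to 0.241). CCDC102A measured 25.1 and 36.2 against 0 in the 6 others, at least 10.2-fold higher by the same floor. IKZF1, which encodes the lymphoid factor Ikaros and was listed among B cell and octamer target genes, was 42.7 and 39.8 in the OCT2 line and 1.14 to 7.34 elsewhere. Its groups were far apart, but its log2 change of 3.35 (SE 0.74) had an adjusted p of 0.321, and 0.248 without the WT libraries. SPSB1, a SOCS box adaptor, was 46.9 and 83.1 in OCT2, but 17.1 and 51.1 in PRRX1, so the groups overlapped although it was called without the WT libraries.

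The 12 genes of the B cell and octamer target list that could be tested had a median log2 change of 0.142 against 0 for all genes, and 0 were called by limma (1 at an unadjusted p under 0.05). That median was unstable, at 0 without a filter, 0.439 with a mean of at least 50 counts, 0.047 without eGFP library 1, 0.068 without OCT2 library 2, and 0.319 without OCT2 library 1. IKZF1 was the member above all other libraries, and 1 member lay below them.

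The octamer was searched for in the 250 bases before the RefSeq start of the genes that were higher in the OCT2 line, since that is the motif the factor binds. Of 19 such genes (13 repeatable, described below, and those that passed an adjusted p of 0.05 without the WT libraries), 11 had a RefSeq entry, and 0 of them held ATGCAAAT on either strand. The full motif is found in 1.63% of 35116 such stretches. At so low a share 11 stretches are too few to show a lack of it, and no conclusion on binding is drawn. The stretches of 3 genes that were higher in the OCT2 line and in both KO clones are printed as the RefSeq stretches that were searched. Which start these cells used was not measured, and for SMOC1 the stretch lies inside the longer GENCODE gene given above. They are the 250 bases before the RefSeq start on GRCh38.p14, printed 5′ to 3′ on the strand of the gene, for SMOC1 chr14:69879166-69879415 (plus), for LRRC15 chr3:194369744-194369993 (minus) and for RELN chr7:103989659-103989908 (minus). Capitals mark the first 8 bases that come closest to the octamer on either strand.
SMOC1: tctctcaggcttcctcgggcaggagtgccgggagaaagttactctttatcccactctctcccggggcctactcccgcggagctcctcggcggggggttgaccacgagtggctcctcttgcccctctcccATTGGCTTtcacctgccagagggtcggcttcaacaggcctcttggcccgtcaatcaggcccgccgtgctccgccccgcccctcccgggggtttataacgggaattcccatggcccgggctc
LRRC15: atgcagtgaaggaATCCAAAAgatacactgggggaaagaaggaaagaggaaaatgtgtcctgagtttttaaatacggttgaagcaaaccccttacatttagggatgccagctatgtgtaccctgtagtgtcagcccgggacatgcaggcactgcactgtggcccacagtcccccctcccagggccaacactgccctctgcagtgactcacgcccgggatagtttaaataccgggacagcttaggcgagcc
RELN: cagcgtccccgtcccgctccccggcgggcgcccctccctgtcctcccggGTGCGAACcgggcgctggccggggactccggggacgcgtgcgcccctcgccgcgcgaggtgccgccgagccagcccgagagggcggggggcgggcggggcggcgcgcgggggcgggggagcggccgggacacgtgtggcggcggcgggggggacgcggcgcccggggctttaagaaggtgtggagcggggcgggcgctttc
The marked bases match 6 of 8 letters in SMOC1 and LRRC15, which 65.4% of all such stretches reach, and 5 of 8 in RELN. They are no more octamer-like than most promoters. G and C made up 65.6% of the SMOC1 stretch, 52.8% of that of LRRC15 and 83.2% of that of RELN. Distant elements were not analysed here.

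To see whether differences below 2-fold were repeatable, genes were taken with a mean of at least 200 counts, duplicates within 0.5 log2 in every line, no overlap between OCT2 and the others and a change over 0.5. This rule was chosen after the values were seen and its counts are descriptions. Of 5046 genes with such levels and duplicates, 13 were higher (0.258%) and 9 lower (0.178%) in the OCT2 line. The same rule gave 14 and 14 for eGFP, 13 and 18 for PRRX1, and 11 and 9 for SOX2, so the number for OCT2 was like that of the other lines. Just inside the limit on the higher side were JRK, at 0.51, and ATP13A2, at 0.53.

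The 13 higher genes were RELN, SMOC1, DCN, WDR7, WDR91, SLC7A2, TRIM66, NAA40, CSGALNACT1, FBRSL1, OSGIN2, ATP13A2 and JRK. CSGALNACT1, which starts chondroitin sulfate chains of the kind carried by decorin, measured 2547 and 2414 against 1346 to 2063 (log2 0.56, SE 0.18, adjusted p = 0.726). WDR91, of endosome maturation, measured 1106 and 1089 against 645 to 855, and ATP13A2, a lysosomal polyamine transporter, 532 and 537 against 335 to 474. NAA40, an acetyltransferase of histone N termini, was 295 and 310 against 169 to 271. Among the 13, 5 (38.5%) were also called higher in both SETD2 KO clones, namely RELN, SMOC1, DCN, SLC7A2 and CSGALNACT1, where 5.93% of the 5046 eligible genes were. The corresponding counts were 1 of 14 for eGFP, 0 of 13 for PRRX1 and 3 of 11 for SOX2. Genes called higher in both KO clones were also found among the repeatable lower genes. There they were 3 of 9 for OCT2, 1 of 14 for eGFP, 6 of 18 for PRRX1 and 0 of 9 for SOX2.

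CXCL8 and SERPINA1 were lower in the OCT2 line on the deposited scale, and neither passed over the inverted counts. CXCL8, the neutrophil chemokine interleukin 8, measured 3378 and 3190 in the OCT2 line, 4817 and 4353 in eGFP, 4370 and 3853 in PRRX1, and 4319 and 4157 in SOX2. Both OCT2 libraries were below the others, and the log2 change was -0.39 (SE 0.13, adjusted p = 0.782, and 0.0174 on the deposited scale). SERPINA1, the protease inhibitor alpha-1 antitrypsin, measured 4737 and 4570 against 6535 and 6595 in eGFP, 5529 and 5387 in SOX2, and 5105 and 4587 in PRRX1. It overlapped with PRRX1, and its change of -0.26 (SE 0.05) had adjusted p = 0.238, and 0.0391 on the deposited scale.

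KIF18A, a kinesin of the mitotic spindle, was at 0 in both OCT2 libraries and between 8.54 and 21.7 in the others, at least 4.6-fold lower by the floor of 3 counts. Its adjusted p was 0.187 over 22 libraries and 0.0338 without the WT libraries. In those WT libraries KIF18A was 6.26 and 0. The 9 repeatable lower genes were IL1R1, KDELR3, PACC1, MIPOL1, DYSF, P4HB, DGKI, ANKRD1 and CCT2. KDELR3, a receptor that returns escaped proteins to the endoplasmic reticulum, measured 174 and 170 against 239 to 313 (log2 -0.65, SE 0.16, adjusted p = 0.463). P4HB, a protein disulfide isomerase and prolyl hydroxylase subunit of the same compartment, measured 2322 and 2872 against 3189 to 4917. IL1R1, the interleukin 1 receptor, was 167 and 164 against 215 to 335. Of the 9, IL1R1, KDELR3 and DGKI were called higher in both KO clones, and ANKRD1, a target of YAP, lower. Of the 5046 eligible genes, 5.93% were called higher and 6.24% lower in both KO clones.

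Against single lines, the count depended on the partner. Against eGFP 5 genes were called (0.0343%), with 1026 (7.03%) at an unadjusted p under 0.05. P3H3, a prolyl hydroxylase of collagen (adjusted p = 0.00112), was 485 and 513 in OCT2 and 46.7 and 23.5 in eGFP, but 425 and 383 in PRRX1 and 380 and 359 in SOX2. SLC26A9, an anion transporter, was 25.6 and 14.5 in OCT2 and 0 in eGFP, and 5.15 to 28.8 in the remaining lines. THBS2, a matricellular thrombospondin, was 44.6 and 62.7 against 20.6 and 19.6 in eGFP, with 28.6 to 58.5 in the others. These genes were low in the eGFP line, and the same holds for SPSB1, at 0 in both eGFP libraries. The lower gene, ENSG00000279389, was 37.9 and 31.9 in eGFP and 0 in the other 6 transduced libraries.

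Against PRRX1 the called gene was PRRX1 itself (1 gene, 0.00686%, with 803 at an unadjusted p under 0.05). Against SOX2 0 genes were called (0%), with 539 at an unadjusted p under 0.05 by limma and a smallest adjusted p of 0.115. No gene was called against all 3 lines in this fit, and without the WT libraries POU2F2 and CCDC102A were. POU2F2 alone passed the adjusted p against each of the 3 lines on the deposited scale. When each of the other lines was set against its 3 partners in the same way, 8 genes were called for eGFP (0.0549%), 1 for PRRX1 (0.00686%) and 3 for SOX2 (0.0206%).

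Gene lists were read by their members that lay outside the range of the 6 other libraries, beside the same share of all genes. Both OCT2 libraries were above all others for 612 of 14585 genes (4.2%) and below them for 735 (5.04%). Over 28 lists, 588 genes could be tested, 0 were called by limma, 38 (6.46%) were above all others and 39 (6.63%) below. List medians ran from -0.157 to 0.194 on the log2 scale. None of these lists was tested as a group, and their members share regulation, so the shares are descriptions.

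Among lists of more than 10 tested genes, the cell cycle list had the largest share above the others. Of 36 tested, 11 were above all 6 other libraries and 0 below, with a median change of 0.194, which was 0.326 without OCT2 library 2, 0.186 to 0.259 without each other transduced library, and 0.036 on the compressed deposited scale. MKI67, the proliferation antigen Ki-67, measured 2320 and 2173 against 1556 to 2001. CCNB1, the mitotic cyclin B1, measured 1008 and 925 against 666 to 923, and NUSAP1, a spindle protein, 936 and 919 against 486 to 829. Some margins were small, as for CCNB1, and the smallest adjusted p of any of the 36 was 0.835, and 0.661 without the WT libraries. CDK1 was 776 and 837 against 632 to 758, and the replication factor CDC6 was 347 and 285 against 223 to 280. Of the 11, 9 were called lower in both KO clones, as were 26 of the 36 tested.

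Mesenchymal genes showed no common direction. Of 35 tested, DCN was above all other libraries and VIM, FN1, MMP2 and COL5A1 were below, with a median of -0.044, which was 0.012 when every library was scaled to the same total. No member was called, and DCN passed the adjusted p without the WT libraries. FN1, which encodes fibronectin, measured 606863 and 605359 against 650748 to 752935, or -0.24 on the log2 scale with an SE of 0.3. Its adjusted p was 1, and 0.105 without the WT libraries, in which FN1 was 697564 and 180968. VIM, the intermediate filament vimentin, measured 80361 and 78518 against 84437 to 89464 (log2 -0.15, SE 0.06, adjusted p = 0.962). MMP2, a gelatinase, measured 1925 and 1848 against 1997 to 2832, and its margin to the nearest library was within the spread of the eGFP duplicates. COL5A1, a fibrillar collagen chain, was low at 6.68 and 4.41 against 11.5 to 36.8. Without the WT libraries its adjusted p was 0.0713, and it passed against eGFP alone. The EMT factor ZEB2 was 1687 and 1562 in OCT2 and 1593 to 1886 in the others.

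Epithelial genes had a median of 0.032, which turned to -0.055 with a mean of at least 50 counts and to -0.008 with quantile normalization. Of 27 tested, CLDN2, a pore-forming claudin of the proximal tubule, was above the others at 678 and 659 against 505 to 566. OCLN, the tight junction protein occludin, was below at 35.7 and 28.9 against 38.5 to 104, and PKP2, of desmosomes, at 345 and 362 against 364 to 512. CDH1, which encodes E-cadherin, was 0 and 49.8 in the OCT2 libraries and 3.51 to 58 in the others, too variable to compare. MUC1 was 80.2 and 66.6 against 49 to 218. Of 23 proximal tubule genes 0 were outside the range of the others in either direction.

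**Figure D4:**
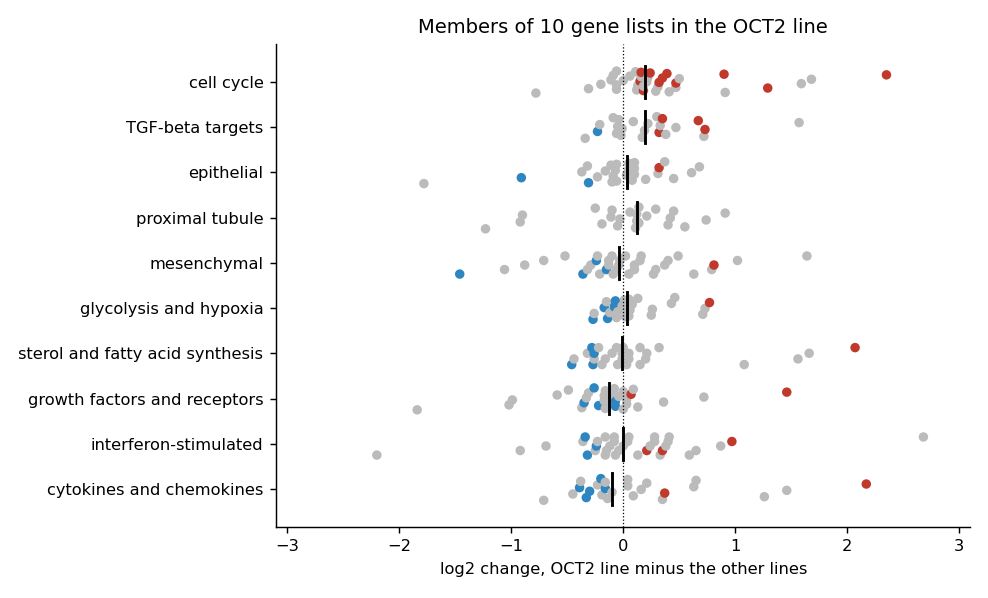
Log2 change of each tested member of 10 gene lists in the OCT2 line against the other transduced lines (horizontal), with list medians as black bars. Red members lie above and blue members below all 6 other libraries in both OCT2 libraries, as for 11 red of 36 in the cell cycle list and 1 red and 4 blue of 35 in the mesenchymal list.

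Cytokines and chemokines showed no common direction, with 13 of 25 tested genes below 0 and 12 above. Their median was -0.104, which was -0.033 against eGFP alone, 0 without a filter, -0.064 without OCT2 library 1 and -0.019 without PRRX1 library 2, and none was called. IL1A, IL18, IL32, CXCL1 and CXCL8 were below all others and IL7 and CXCL12 above. IL1A, an epithelial alarmin, measured 502 and 534 against 581 to 743, and CXCL1, a neutrophil chemokine, 21576 and 21628 against 23028 to 25908. CXCL12, the ligand of CXCR4, measured 1211 and 1141 against 711 to 1046 (log2 0.37, SE 0.51, adjusted p = 1). Without the WT libraries its adjusted p was 0.248, and it passed against eGFP alone. Among 35 interferon-stimulated genes IFI6, IFI44L and ISG15 were above and 3 below, among them IRF9 and EPSTI1, with a median of 0.004.

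No member of the metabolic lists was called. In glycolysis and hypoxia 5 of 27 were below the others and SLC2A3 above, and those below were PGK1, BNIP3, VEGFA, P4HA1 and P4HA2. BNIP3, a mitophagy receptor induced by hypoxia, measured 3237 and 3071 against 3623 to 4102 (log2 -0.27, SE 0.07, adjusted p = 0.502). In sterol and fatty acid synthesis 4 of 28 genes were below, among them HMGCS1, ACACA and FADS1, with HMGCS1, an early enzyme of the mevalonate pathway, at 1549 and 1595 against 1631 to 2016 (adjusted p = 0.502). ABCG1, a sterol exporter, was above the others but near the floor, at 5.41 and 2.88 against 0 to 1.85 (log2 2.07, SE 0.59, adjusted p = 0.61). Growth factors and receptors had 5 of 32 members below (MET, PDGFC, FGF5, VEGFA and KITLG) and IGFBP6 and IGFBP7 above. Margins were narrow for MET (10904 and 10881 against 10948 to 12178) and VEGFA (7633 and 7470 against 7700 to 8187). The same held for PGK1 in the hypoxia list (8666 and 8691 against 8731 to 9909). KITLG had a wider margin (644 and 665 against 768 to 906). The normalized totals of the OCT2 libraries lay below those of the other transduced lines. Whether this alone placed such genes below the others was not tested. IGFBP6, which binds insulin-like growth factor II, was 166 and 214 against 32.6 to 114 (log2 1.46, SE 0.46, adjusted p = 0.726).

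In the TGF-β target list, which also holds BMP ligands and antagonists, SKI, ID2, BMP4 and NOG of 23 genes were above. Below was 1 gene, none was called, and the median was 0.193. NOG and BMP4, an antagonist and a ligand of BMP signalling, were 104 and 116 against 67.3 to 102 and 524 and 501 against 316 to 448. The remaining lists had at most 3 members outside the range on either side.

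The OCT2 line was also read over the genes that changed with SETD2 loss. In both KO clones against WT, 1013 genes (6.95%) were called higher and 836 (5.73%) lower, and none of these libraries belongs to the transduced lines. These KO calls rest on the untreated WT duplicates, which differed most from each other, also where the OCT2 calls left them out. Of the 1013, 56 (5.53%) were above all other transduced libraries in the OCT2 line and 60 (5.92%) below, and their median log2 change was 0. Of the 836, 55 (6.58%) were above and 45 (5.38%) below, with a median of 0.019. Shares over all genes were 4.2% and 5.04%, and the KO genes as a whole had medians at or near 0 in the OCT2 line.

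The few genes that passed a test were mostly genes also higher without SETD2. All 6 genes higher on the deposited scale and 4 of the 6 called higher without the WT libraries were called higher in both KO clones. Over all genes tested that share was 6.95%. The 3 genes lower on the deposited scale were KO genes as well. PRRX1 and CXCL8 were called higher in both KO clones and SERPINA1 lower. The overlap was thus not confined to genes higher in the OCT2 line. Both counts of higher genes include POU2F2, the transduced gene. The study picked it as a factor high in KO cells, so its membership was given in advance. For LRRC15 the log2 change was 1.67 in the OCT2 line and 10.32 and 10.5 in KO1 and KO2 against WT. For DCN it was 0.81 against 9.26 and 8.02, and DCN averaged 228207 in KO1 and 96676 in KO2 where the OCT2 line had 3121 and 3004. The same order held for SMOC1 (0.94 against 6.08 and 5.61), RELN (1.23 against 5.17 and 7.54) and SLC7A2 (0.62 against 7.2 and 7.38). For RUNX1T1, at 38.3 in KO1 and 7.37 in KO2, the OCT2 libraries at 29.5 and 21.9 lay between the KO means. IKZF1, which did not pass the adjusted p in the fits above, averaged 819 and 284 in the KO clones, where the OCT2 line had 42.7 and 39.8. KO and transduced cells differed in serum, so these levels are set side by side without a test.

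Other KO genes went the opposite way. CXCL8 and IL1R1, called higher in both KO clones, were below the other lines in OCT2. ABCB4, a phospholipid transporter, averaged 390 and 535 in KO1 and KO2 and was 36.9 and 41 in the OCT2 line against 66.7 to 109 (log2 -1.15, SE 0.22, adjusted p = 0.222).

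**Figure D5:**
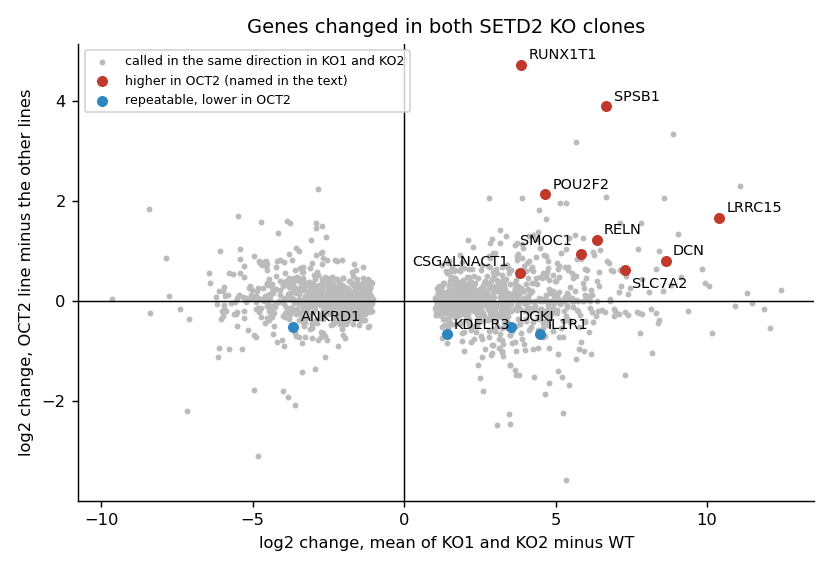
Log2 change in KO cells against WT, as the mean of KO1 and KO2 (horizontal), and log2 change in the OCT2 line against the other transduced lines (vertical), for the 1013 genes called higher and the 836 called lower in both KO clones. Most points lie along 0 on the vertical axis, and of the named genes RUNX1T1 alone changed by more in the OCT2 line (4.73) than on average in the KO clones.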

How the data were processed

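The labels put 22 RNA-seq libraries of RPTEC into 11 groups of 2. Per the study's methods and the submitters' processing notes, the authors quantified TruSeq stranded mRNA reads with Salmon 1.9.0 on hg38 transcripts and used DESeq2 1.26.0. The authors deposited log2 values for 36859 genes, which the values themselves show to be variance-stabilized normalized counts with a shared lowest value of 11.32. The transformation was inverted, and log2(normalized count + 1) was tested for 14585 genes with at least 10 counts in at least 2 of all 22 libraries. The alternative filter, a mean of at least 50 counts, was also taken over all 22. Whole reads could not be recovered, so the depth in reads is unknown and count models were not used. The test was limma 3.58.1 (R 4.3.3, variance trend, 11 group means, all libraries) with Benjamini-Hochberg adjustment over all genes. Differences and SE are on that log2 scale, and understate changes of low genes.

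The comparison to describe and the gene lists were chosen with earlier results of these data known. Which libraries the comparison held followed from the labels. Genes to be named were the largest called changes with at least 50 counts, which gave 0 genes, and the POU factors. The other genes named were chosen after their values were seen. Symbols and gene positions came from GENCODE release 44 (33878 of 36859 genes), and promoters from RefSeq (GRCh38.p14). Genes without a symbol may share reads with near-identical copies. The procedure was tested on simulated data. Alternatives were pseudocounts of 0.5 and 5, other filters and scalings, subsets of libraries, a replicate block, the deposited log2 scale, and each transduced library left out. Promoters were read with pandas 2.3.3 and plots drawn with matplotlib 3.10.9. The SOX2 gene was not analysed here, and some list members are not reported here.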

Additional observations from a re-analysis of the deposited data

How the results depend on the processing

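Counts of called genes were small and moved with the processing, and in most cases the cause was not tested. The count for OCT2 against the other lines was 0 with a pseudocount of 5, a mean of at least 50, quantile normalization, the replicate block or the deposited log2 values, 9 without a filter, 3 with the 8 transduced libraries, 2 with these and a mean of at least 50, 9 on the deposited scale by the adjusted p alone, 7 without the untreated WT libraries, 2 without KO1, 0 without TGF-β-treated WT, KO2, KO2 rescue, Rescue1 or Rescue2, and 0 to 4 when 1 transduced library was left out. Against eGFP it was 3 with a pseudocount of 5, a mean of at least 50 or only annotated genes, 14 without a filter, 0 with the 4 libraries of both groups or the deposited values, 9 by the adjusted p alone, 13 without the WT libraries, 2 with the 8 libraries and the higher filter, and 3 to 37 leaving out 1 library. Genes called against every line numbered 2 without a filter or without the WT libraries, 3 with 8 libraries, 1 with 8 libraries and the higher filter or by the deposited adjusted p, and 0 to 1 leaving out 1 library. For the eGFP line the count was 17 without a filter, 5 with the higher filter, quantile normalization or 8 libraries, 2 with both, 0 on the deposited values, and 6 to 52 leaving out 1 library. For PRRX1 it was 8 without a filter, 6 with 8 libraries, 2 by the deposited adjusted p, 0 otherwise where it moved (a higher filter, alone or with 8 libraries, and the deposited values), and 1 to 9 leaving out 1 library. For SOX2 it was 11 without a filter, 1 with the higher filter, 0 on the deposited values, 5 by the deposited adjusted p, and 1 to 10 leaving out 1 library.

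The log2 change of POU2F2 was 2.14 without the WT libraries, now past the threshold, 2.01 to 2.27 leaving out 1 library (adjusted p 0.176 to 0.924), and 0.5 on the compressed deposited scale. The medians of KO genes were 0.039 (higher in KO) and 0.066 (lower in KO) with the same total for every library and 0.001 (lower in KO) on the deposited values, and between -0.002 and 0 and between 0.009 and 0.029 leaving out 1 library. None of the genes recomputed under the alternatives changed direction, while the epithelial median ran from -0.055 to 0.039 and the mesenchymal median from -0.09 to 0.012. With the replicate block RUNX1T1 had an adjusted p of 0.0863 and POU2F2 of 0.29. Same-numbered libraries did not deviate together (correlations of -0.316 to 0.049 over 6 pairs of lines), so the replicate numbers were not taken as pairs. The depth in reads is unknown, which limits statements on genes near the floor of 3 counts, and 2 libraries of 1 transduction limit every comparison.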
